A study of Canis lupus familiaris with 60 samples.

Results

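The expression of 5 genes of the cornified envelope and late differentiation of the epidermis was described: TGM1, SCEL, PPL, CALML5 and DMKN. The skin came from Beagle dogs sensitized or not sensitized to a house dust mite. The genes were taken from their identifiers on the array (NM_001003079 for TGM1, ENSCAFT00000008343 for SCEL, AF494098 for PPL, ENSCAFT00000008442 for CALML5 and XM_533694 for DMKN) and from probes that the study's gene annotation gives the same symbols. They were read by 8 of the 60068 probes that are not controls: 1 each for TGM1, SCEL and CALML5, 2 for PPL and 3 for DMKN. Of the 1445 gene symbols that could be attached to the array's identifiers, these are 5. All 5 stand in the study's own list of genes that differed at 24 hr, which was chosen on these same arrays, so their 24 hr differences are a description and not independent evidence.

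The cornified envelope is the layer of crosslinked protein that replaces the plasma membrane of a keratinocyte when it becomes a dead corneocyte of the skin surface. Transglutaminase 1 (TGM1) is the membrane-bound enzyme that forms many of the crosslinks. Periplakin (PPL), a plakin that links keratin filaments to the membrane and to desmosomes, and sciellin (SCEL) are among the precursor proteins that are joined to the envelope. CALML5 is a calmodulin-like protein that binds calcium in differentiating keratinocytes, and dermokine (DMKN) is a protein secreted by the upper epidermal layers. All are known as genes of late keratinocyte differentiation in the suprabasal epidermis.

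The dogs were 12 Beagles of 2 to 3 years, 6 sensitized to Dermatophagoides farinae (4 males and 2 females) and 6 nonsensitized (2 males and 4 females). The sensitized dogs had been exposed to the mite through the skin in an experimental protocol and carried mite-specific IgE, so they are a model of induced and not of naturally occurring disease. Each dog gave 5 punch biopsies of 8 mm from the clipped chest: untreated skin at 0 hr, and skin under a patch with 75 mg of mite paste (allergen) and under a patch with 50 µl of saline, each at 6 hr and 24 hr. Patches were applied 4 days after clipping, the saline patch is the control of the allergen patch, and all later sites had been patched and bandaged. This made 10 groups of 6 arrays. The array of sensitized dog 2839 at the 24 hr allergen site, whose RNA integrity was low, was left out, so that this group held 5 arrays of 59 in all. The sex ratio differs between both kinds of dogs, and the sex of each dog is not in the labels used here, so sensitization and sex cannot be told apart.

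Values are log2 signals after scaling between arrays, on which a difference of 1 is 2-fold. The median processed signal of an array ranged from 81.7 to 146.12 and 68.85% to 80.15% of its spots were well above background. All 8 probes were well above background on every one of the 59 arrays and no saturation was flagged on the 58 arrays that carry this flag. Levels are compared between groups within a probe. Signals of different probes are used together only to pick the brightest probe of a gene, to choose the genes named from a list and to sum the levels of marker lists. A whole biopsy was measured, so that fewer keratinocytes and less RNA per keratinocyte cannot be told apart. Slides and times were tied together: slides 6 to 8 carried the untreated skin, slides 4 to 8 the biopsies of 6 hr, and slides 1 to 3 those of 24 hr, of which 1 lay on slide 8. Differences from 0 hr or 6 hr therefore carry the slide with them. At the 24 hr allergen site, 4 of the 6 nonsensitized arrays lay on slide 1 and 3 of the 5 sensitized arrays on slide 3. The comparison of both kinds of dogs at that site therefore carries the slide in part.

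**Figure D1:**
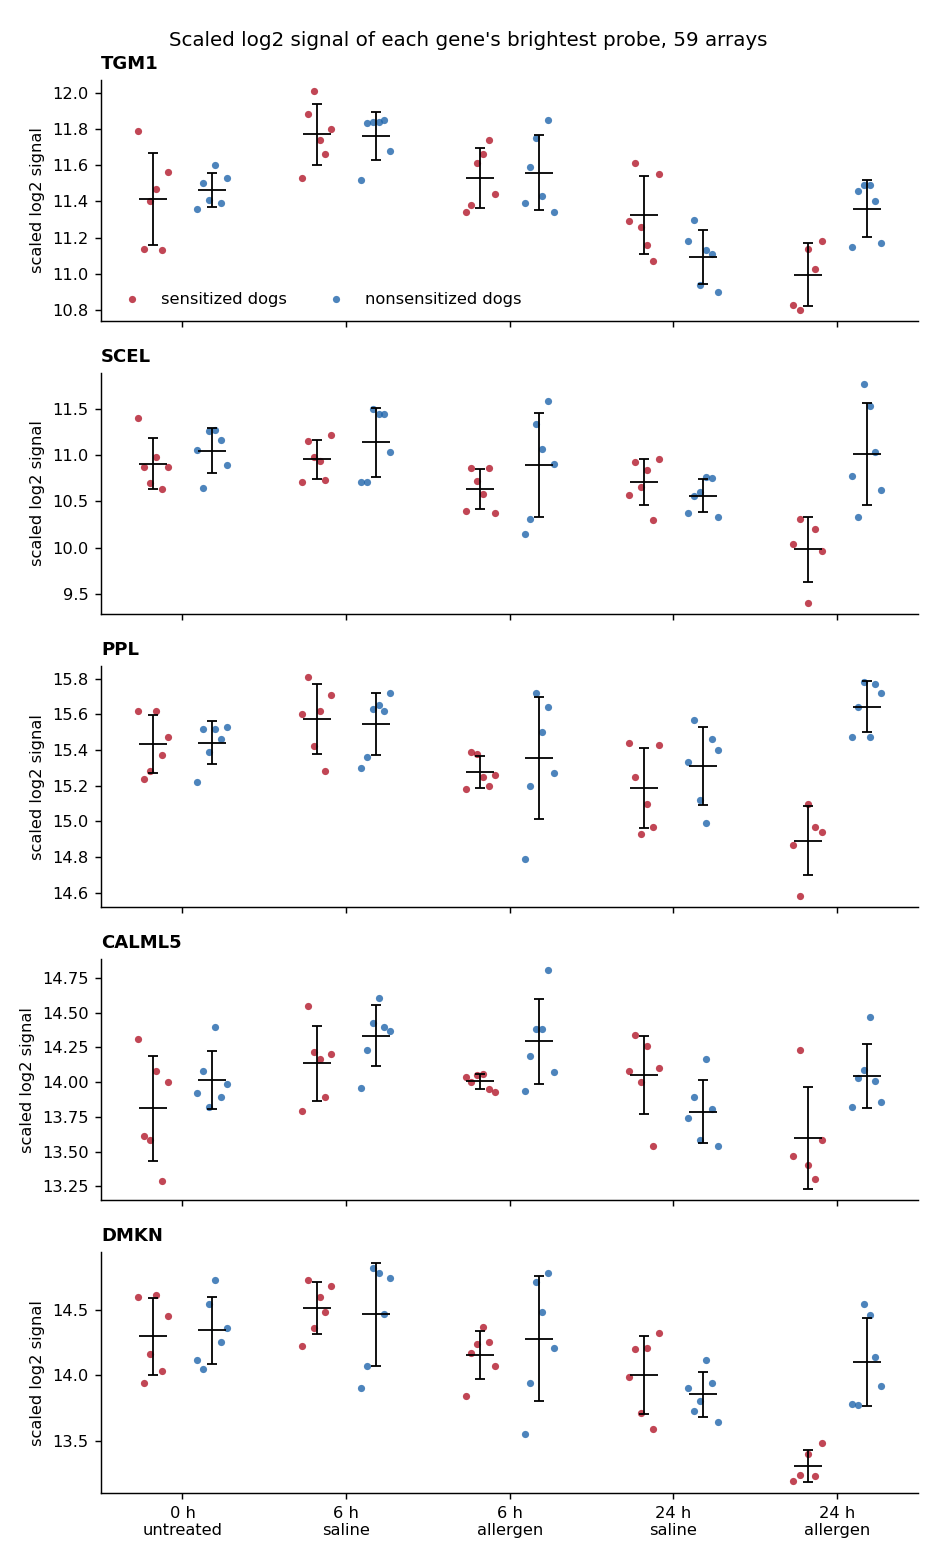
Scaled log2 signal (vertical axes) of the brightest probe of each gene by biopsy site (horizontal axis), with 1 point per array, red for sensitized and blue for nonsensitized dogs, and black lines for the mean ± SD (n = 6, or 5 at the sensitized 24 hr allergen site). The sensitized 24 hr allergen group has the lowest of the 10 means for every gene, from 9.98 for SCEL to 14.89 for PPL.

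TGM1, the crosslinking enzyme, had a signal of 10.83, 10.8, 11.14, 11.03 and 11.18 at the 24 hr allergen site of sensitized dogs 2838, 2840, 2841, 2853 and 2855. The nonsensitized dogs had 11.15 to 11.49 there (median 11.43). Of the 5 sensitized dogs, 4 lay below all nonsensitized dogs, and the groups overlapped. At the 24 hr saline site the order was the other way, with 11.07 to 11.61 (median 11.27) in the sensitized and 10.9 to 11.3 (median 11.12) in the nonsensitized dogs. Untreated skin had means of 11.42 ± 0.25 (sensitized) and 11.47 ± 0.09 (nonsensitized; SD, n = 6 each). The highest means were at the 6 hr saline site, 11.77 ± 0.17 (SD, n = 6) and 11.76 ± 0.14 (SD, n = 6), and the 6 hr allergen site had 11.53 ± 0.16 and 11.56 ± 0.21 (SD, n = 6 each). Over all 59 arrays TGM1 ranged over 1.21.

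SCEL, an envelope precursor, showed the widest range of the 5 genes, 2.37. In the sensitized dogs the 24 hr allergen site had 10.04 (dog 2838), 10.31 (2840), 9.4 (2841), 10.2 (2853) and 9.97 (2855). The nonsensitized dogs had 10.33 to 11.77 there with a median of 10.9, so that every sensitized dog lay below every nonsensitized dog, although the closest values were 10.31 and 10.33. The nonsensitized allergen sites were spread widely (SD 0.55 at 24 hr and 0.56 at 6 hr). At the 24 hr saline site SCEL had 10.3 to 10.96 (median 10.75) in sensitized and 10.33 to 10.76 (median 10.58) in nonsensitized dogs. Untreated skin had means of 10.91 ± 0.27 and 11.05 ± 0.24 (SD, n = 6 each) in the same order. At 6 hr the allergen site had means of 10.63 ± 0.22 and 10.89 ± 0.56, and the saline site 10.95 ± 0.21 and 11.14 ± 0.37 (SD, n = 6 each).

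PPL, the plakin, was read by 2 probes that followed each other closely (Pearson r 0.99 over 59 arrays). With the brighter of them the 24 hr allergen site of sensitized dogs had 14.87 (dog 2838), 14.58 (2840), 15.1 (2841), 14.97 (2853) and 14.94 (2855). The nonsensitized dogs had 15.47 to 15.78 there with a median of 15.68, the highest group mean of PPL in the study (15.64 ± 0.14, SD, n = 6). The groups did not overlap and the gap between them was wider than for SCEL. The saline sites at 24 hr overlapped, with 14.93 to 15.44 (median 15.18) in sensitized and 14.99 to 15.57 (median 15.36) in nonsensitized dogs. Untreated skin had means of 15.43 ± 0.17 and 15.44 ± 0.12 (SD, n = 6 each). The 6 hr means were 15.57 ± 0.19 and 15.55 ± 0.17 at the saline site and 15.28 ± 0.09 and 15.35 ± 0.34 at the allergen site (SD, n = 6 each).

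CALML5 is the calcium-binding protein. At the 24 hr allergen site the sensitized dogs had 13.47 (dog 2838), 14.23 (2840), 13.4 (2841), 13.3 (2853) and 13.58 (2855), and the nonsensitized dogs 13.82 to 14.47 (median 14.02). Dog 2840 lay within the nonsensitized dogs and the other 4 below them. The 24 hr saline site had 13.54 to 14.34 (median 14.09) in sensitized and 13.54 to 14.17 (median 13.78) in nonsensitized dogs. Untreated skin of the sensitized dogs was spread over 13.29 to 14.31 (mean 13.81 ± 0.38, SD, n = 6) against 13.82 to 14.4 in nonsensitized dogs (mean 14.02 ± 0.21, SD, n = 6). The 6 hr means lay between 14.0 and 14.33.

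DMKN, the secreted protein, was read by 3 probes whose pairwise Pearson r was 0.92 to 0.98 over 59 arrays. With the brightest probe, the sensitized 24 hr allergen site had 13.19 (dog 2838), 13.24 (2840), 13.4 (2841), 13.23 (2853) and 13.48 (2855), the tightest of its 10 groups (SD 0.13). These 5 values lay below every nonsensitized dog at that site (13.77 to 14.54, median 14.03) and below every sensitized dog at the 24 hr saline site (13.59 to 14.32, median 14.1). The nonsensitized saline sites had 13.64 to 14.12 (median 13.85). Untreated skin had means of 14.3 ± 0.29 and 14.34 ± 0.26 (SD, n = 6 each). The 6 hr saline site had the highest means, 14.51 ± 0.2 and 14.46 ± 0.4, and the 6 hr allergen site had 14.16 ± 0.18 and 14.28 ± 0.48 (SD, n = 6 each).

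Among the 10 group means of a gene placed in order, most neighbours could not be separated: 41 of the 45 neighbouring pairs differed by less than the larger of their SDs. The 4 that differed by more were the last step to the sensitized 24 hr allergen group for SCEL, PPL and DMKN and, for TGM1, the step between the 24 hr saline groups of sensitized and nonsensitized dogs. The pooled SD within groups was 0.18 for TGM1, 0.2 for PPL, 0.27 for CALML5, 0.29 for DMKN and 0.35 for SCEL.

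The first question was whether the response to the allergen differed between sensitized and nonsensitized dogs, measured by taking allergen minus saline in each kind of dog and subtracting the nonsensitized from the sensitized value (the interaction). A difference was called at an adjusted p (Benjamini-Hochberg over 45972 probes, limma) below 0.05 and at least 1.5-fold. At 24 hr, 4 of the 5 genes were called and lower, against 0.337% of all probes called and lower. Since the study chose these genes on this interaction, nothing is read from that share. The interaction of SCEL was -1.17 (SE 0.28, adjusted p = 0.0266, limma), that of DMKN -0.94 (SE 0.24, adjusted p = 0.0366), that of PPL -0.63 (SE 0.16, adjusted p = 0.041) and that of TGM1 -0.59 (SE 0.15, adjusted p = 0.033), which is 1.51-fold and just inside the fold limit. CALML5 had -0.72 (SE 0.22, adjusted p = 0.0847, limma) and did not pass the p threshold. The second PPL probe had -0.63 (adjusted p = 0.0386, limma), and the other DMKN probes had -0.96 (adjusted p = 0.033) and -0.84 (adjusted p = 0.0541), the last of which was not called.

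The adjusted p-values of the called genes lay between 0.0266 and 0.041 (limma), and the number of called genes changed when single dogs were left out. It was 0 without dog 2800, 2802, 2839 or 2855, 1 without dog 2838, 2845 or 2847, 2 without dog 2840 or 2841, and 4 without each of the other 3 dogs (2704, 2716 and 2853). The size of the interaction moved less, between -1.31 and -1.0 for SCEL and between -0.66 and -0.54 for TGM1 with each dog left out in turn. With slide as a block, the interaction was -1.33 for SCEL, -0.97 for DMKN, -0.92 for CALML5 (adjusted p = 0.0153, limma, called), -0.54 for TGM1 (adjusted p = 0.0333, limma, under the fold limit) and -0.44 for PPL (adjusted p = 0.0813, limma). Without scaling between arrays 0 of the 5 genes were called by limma, with values from -1.13 for SCEL to -0.54 for TGM1 and unadjusted p below 0.05 for 4377 of all probes. With each time fitted separately, DMKN alone was called (adjusted p = 0.0318, limma), with 0.0516 for SCEL, 0.0614 for TGM1 and 0.0667 for PPL. With the 5 biopsies of a dog compared within the dog, all 5 genes were called (adjusted p from 0.00161 for DMKN to 0.0162 for CALML5, limma). The share of 0.337% given above belongs to the unpaired fit, and nothing is read from this count either.

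Both parts of the interaction were compared separately. In the sensitized dogs, DMKN fell at the 24 hr allergen site relative to saline by 0.69 (SE 0.18, 1.62-fold, adjusted p = 0.0453, limma). The DMKN groups did not overlap, as was the case for 0.694% of all probes in this direction. DMKN was the only called gene of the 5, in a comparison in which 0.1% of all probes were called and lower. SCEL had -0.73 (SE 0.21, adjusted p = 0.0888, limma), CALML5 -0.46, TGM1 -0.33 and PPL -0.3, none of which was called. The call of DMKN was lost without any 1 of 8 dogs (2838, 2839, 2840, 2841, 2845, 2847, 2853 or 2855), and without scaling (-0.71, adjusted p = 0.171, limma). In the comparison within dogs 2 genes were called, SCEL (-0.7, adjusted p = 0.00644, limma) and DMKN (-0.69, adjusted p = 0.00108), and with slide as a block 3, SCEL (-0.88), DMKN (-0.72) and CALML5 (-0.66).

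In the nonsensitized dogs none of the 5 genes was called, while 0.107% of all probes were called and higher and 0.659% called and lower. Their allergen minus saline differences at 24 hr were 0.27 for TGM1 (95% interval 0.06 to 0.47), 0.44 for SCEL (0.05 to 0.84), 0.33 for PPL (0.1 to 0.56), 0.26 for CALML5 (-0.05 to 0.56) and 0.25 for DMKN (-0.09 to 0.58), with adjusted p of 0.149 or more (limma). In the comparison within dogs PPL passed the p threshold under the fold limit (0.33, adjusted p = 0.0423, limma). The same arrays enter the interaction, so these values are parts of it and not separate support.

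**Figure D2:**
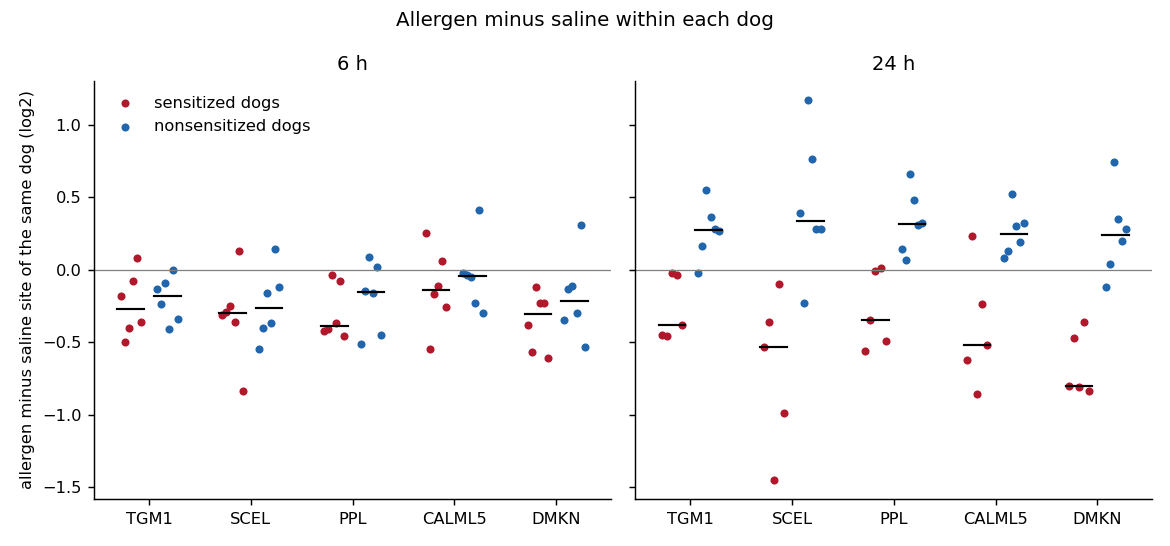
Difference between the allergen and the saline site of the same dog (vertical axis, log2 scale) for each gene at 6 hr (left) and 24 hr (right), with 1 point per dog, red for sensitized and blue for nonsensitized dogs, and a black line at the median. At 24 hr most red points lie below 0 and most blue points above it, and at 6 hr both lie mostly below 0.

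Dog by dog at 24 hr, the DMKN signal under allergen was below that under saline in 5 of 5 sensitized dogs (-0.84 to -0.36), and higher in 5 of 6 nonsensitized dogs (-0.12 to 0.74). The background beside such counts is that 4.81% of all probes were lower in every sensitized dog and 6.37% higher in every nonsensitized dog. SCEL was lower in 5 of 5 sensitized dogs (-1.45 to -0.1) and higher in 5 of 6 nonsensitized dogs (-0.23 to 1.17). TGM1 was lower in 5 of 5 sensitized dogs (-0.46 to -0.02), with dogs 2841 and 2853 at -0.02 and -0.04. PPL was lower in 4 of 5 sensitized dogs (-0.56 to 0.01) and higher in 6 of 6 nonsensitized dogs (0.07 to 0.66). CALML5 was lower in 4 of 5 sensitized dogs (-0.86 to 0.23) and higher in 6 of 6 nonsensitized dogs (0.08 to 0.52).

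The dogs at the ends of these ranges recur. Nonsensitized dog 2800 had the largest positive difference for all 5 genes, from 0.52 for CALML5 to 1.17 for SCEL, and dog 2802 followed with 0.36 for TGM1, 0.76 for SCEL, 0.48 for PPL and 0.35 for DMKN. Sensitized dog 2853 had differences near 0 for TGM1 (-0.04), SCEL (-0.1) and PPL (0.01) and the smallest for DMKN (-0.36). Dog 2841 joined the lowest SCEL and CALML5 differences (-1.45 and -0.86) to TGM1 and PPL differences of -0.02 and -0.01.

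Within single slides the 24 hr differences could be read in a few arrays. On slide 3, which held 3 sensitized allergen and 3 sensitized saline arrays, the differences were -0.25 for TGM1, -0.63 for SCEL, -0.24 for PPL, -0.52 for CALML5 and -0.74 for DMKN. On slide 1, with 4 nonsensitized allergen and 3 nonsensitized saline arrays, they were 0.27, 0.39, 0.25, 0.25 and 0.32 in the same gene order. On slide 2, with 1 sensitized allergen and 2 sensitized saline arrays, they ranged from -1.4 for SCEL to 0.0 for PPL. Among the nonsensitized dogs of slide 2, with 1 allergen and 2 saline arrays, they were 0.1 for TGM1, 0.28 for SCEL, 0.24 for PPL, 0.16 for CALML5 and -0.07 for DMKN, and the 1 allergen and 1 saline array on slide 3 differed by 0.3 for CALML5 to 0.76 for SCEL. All had the sign of the fit over all slides except, on slide 2, DMKN in the nonsensitized dogs and PPL in the sensitized dogs (0.0).

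Sensitized and nonsensitized dogs were also compared at each site. At the 24 hr allergen site SCEL, PPL and DMKN were called and lower in the sensitized dogs, where 3.58% of all probes were called and lower. The difference was -1.03 for SCEL (SE 0.21, 2.04-fold, adjusted p = 0.000383, limma), -0.8 for DMKN (SE 0.18, 1.74-fold, adjusted p = 0.00105) and -0.75 for PPL (SE 0.12, 1.68-fold, adjusted p = 2.68e-05). CALML5 (-0.45, adjusted p = 0.0341, limma) and TGM1 (-0.36, adjusted p = 0.0128) passed the p threshold below the fold limit, so that all 5 genes passed it, beside 10.9% of all probes in this direction. The groups did not overlap for SCEL, PPL and DMKN, as was the case for 4.1% of all probes in this direction. The count was 3 or 4 with each dog left out. PPL, with slide as a block, fell under the fold limit (-0.46, adjusted p = 0.0222, limma), while CALML5 was called (-0.7, adjusted p = 0.0137). TGM1 no longer passed the p threshold with slide as a block (-0.29, adjusted p = 0.137, limma). TGM1 also missed it without dog 2840 (adjusted p = 0.055, limma), and CALML5 without dog 2716, 2800, 2802, 2838, 2841, 2853 or 2855 (adjusted p up to 0.0812) or with each time fitted separately (adjusted p = 0.0613, limma). On slide 2, 1 sensitized dog differed from 1 nonsensitized dog by -1.37 for SCEL, -0.42 for CALML5, -0.38 for DMKN, -0.37 for PPL and -0.01 for TGM1. On slide 3, 3 sensitized dogs differed from 1 nonsensitized dog by -1.46 for SCEL, -1.16 for DMKN, -1.02 for CALML5, -0.54 for PPL and -0.48 for TGM1.

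No gene of the 5 was called at the 24 hr saline site (1.81% of all probes called and higher, 0.566% called and lower) or in untreated skin (0.00218% of all probes called and higher, and none called and lower, by limma; 1544 probes had an unadjusted p below 0.05). The saline differences, sensitized minus nonsensitized, lay between -0.12 for PPL (95% interval -0.35 to 0.11) and 0.27 for CALML5 (-0.04 to 0.57). The interval of TGM1 (0.23, 0.02 to 0.44) was the one of the 5 that did not include 0, with an adjusted p of 0.177 (limma). In untreated skin they lay between -0.21 for CALML5 (-0.51 to 0.1) and -0.01 for PPL (-0.24 to 0.22), and the widest interval was that of SCEL (-0.53 to 0.26).

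**Figure D3:**
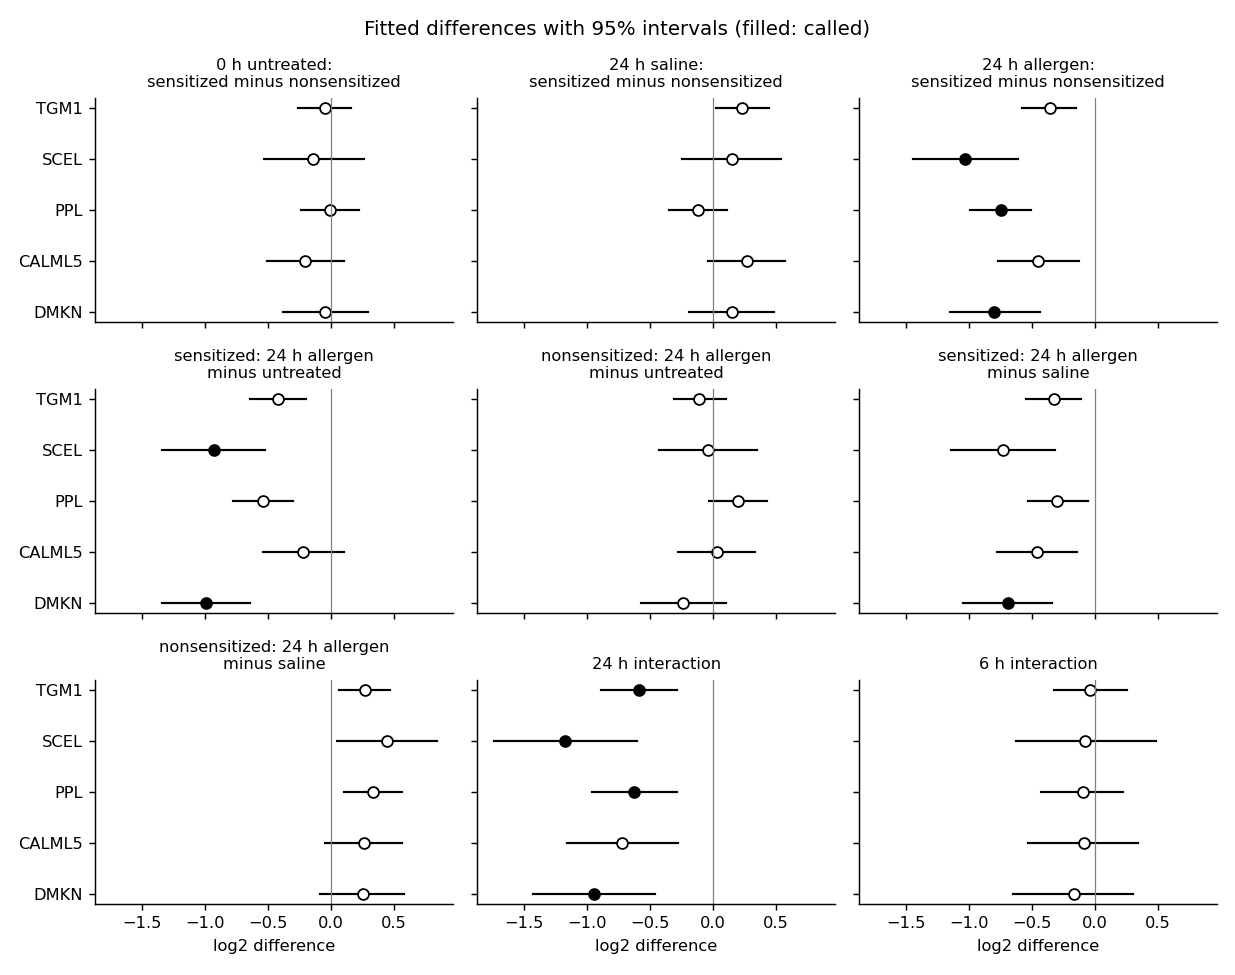
Fitted log2 differences (horizontal axes) with 95% intervals for the 5 genes (vertical axes) in 9 comparisons, with filled points where a difference was called at an adjusted p below 0.05 and at least 1.5-fold. The points sit near 0 at 0 hr, at the 24 hr saline sites and in the 6 hr interaction, and below 0 at the 24 hr allergen sites of the sensitized dogs.

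Over time, the allergen site of the sensitized dogs was compared with their untreated skin. SCEL and DMKN were called and lower at 24 hr, where 6.14% of all probes were called and lower. DMKN fell by 0.99 (SE 0.18, adjusted p = 1.7e-05, limma) and SCEL fell by 0.93 (SE 0.21, adjusted p = 0.000347), and neither overlapped with untreated skin. PPL (-0.54, adjusted p = 0.000346, limma) and TGM1 (-0.42, adjusted p = 0.00183) passed the p threshold under the fold limit, so that 4 genes passed it, beside 18.9% of all probes in this direction. The PPL groups did not overlap either. Such a lack of overlap in this direction held for 5.07% of all probes. CALML5 had -0.22 (95% interval -0.54 to 0.1), lower in 3 of 5 dogs, and its sign turned with slide as a block (0.49) and without scaling (0.12). With slide as a block SCEL was not called (-0.59, adjusted p = 0.306, limma), DMKN was (-1.1, adjusted p = 0.0162), and PPL (-0.87) and TGM1 (-0.59) were called as well. Without scaling SCEL was -0.61 and DMKN -0.65, both called, with a median over all probes of 0.21, while TGM1 (-0.09, adjusted p = 0.64, limma) and PPL (-0.2, adjusted p = 0.292) no longer passed the p threshold.

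From 6 hr to 24 hr the sensitized allergen sites fell by 0.85 for DMKN (SE 0.18, adjusted p = 0.00195, limma) and 0.65 for SCEL (SE 0.21, adjusted p = 0.0424), the called genes in a comparison with 0.585% of all probes called and lower. TGM1 had -0.53 (adjusted p = 0.00179), PPL -0.38 (adjusted p = 0.0392) and CALML5 -0.41 (adjusted p = 0.109), all by limma and none called (2.63% of all probes passed the p threshold and were lower). In the comparison within dogs CALML5 passed the p threshold under the fold limit (-0.38, adjusted p = 0.0414, limma). With each dog left out in turn, the adjusted p of PPL reached 0.171 (limma). The groups of TGM1, SCEL, PPL and DMKN did not overlap, as was the case for 1.48% of all probes in this direction. SCEL lost its call without dog 2838, 2839, 2841, 2847, 2853 or 2855. With slide as a block neither DMKN (-1.03, adjusted p = 0.0807, limma) nor SCEL (-0.41, adjusted p = 0.654) was called, PPL was (-0.8, adjusted p = 0.0138), and the CALML5 difference turned to 0.38. Without scaling the median over all probes was 0.26, and neither was called either, at -0.57 for DMKN and -0.38 for SCEL. TGM1 (-0.25, adjusted p = 0.182, limma) and PPL (-0.1, adjusted p = 0.652) did not pass the p threshold without scaling. TGM1 also missed it with slide as a block (-0.52, adjusted p = 0.131, limma). At the allergen sites of the nonsensitized dogs no gene was called over the same interval, where 8.07% of all probes were called in either direction. PPL had 0.29 there (95% interval 0.06 to 0.52, adjusted p = 0.051, limma), SCEL 0.12 (-0.28 to 0.51), DMKN -0.17 (-0.51 to 0.16), TGM1 -0.2 (-0.41 to 0.01) and CALML5 -0.25 (-0.55 to 0.06). Without scaling PPL (0.8) and SCEL (0.63) were called, and TGM1 (0.31), DMKN (0.34) and CALML5 (0.27) turned sign. In that setting 16199 of the 45972 probes were called higher and the median over all probes was 0.48. Those 3 genes lay below that median. PPL (-0.31) and CALML5 (0.83) turned sign with slide as a block.

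The nonsensitized dogs were compared with their untreated skin in the same way. At their 24 hr allergen site no gene of the 5 was called against untreated skin, where 11.2% of all probes were called and lower and 5.74% called and higher, and the differences lay between -0.24 for DMKN (95% interval -0.57 to 0.1) and 0.2 for PPL (-0.03 to 0.43). At their 24 hr saline site 0 genes were called by limma where 12.8% of all probes were called and lower, while TGM1 (-0.37, adjusted p = 0.00222), DMKN (-0.49, adjusted p = 0.0124) and SCEL (-0.48, adjusted p = 0.0344) passed the p threshold under the fold limit, beside 25.3% of all probes in this direction. Without scaling these 3 were 0.22, 0.11 and 0.11, in a comparison whose median over all probes moved from 0.02 to 0.51, so they stayed below that median. None of the 3 passed the p threshold with slide as a block (TGM1 -0.65, adjusted p = 0.105, limma; DMKN -0.56, adjusted p = 0.508; SCEL 0.15, adjusted p = 0.905) or with all 60 arrays (adjusted p of 0.0508, 0.0546 and 0.0687 in the same order). At the saline site of the sensitized dogs no gene was called at 24 hr against untreated skin, with 5.12% of all probes called and lower.

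The nonsensitized saline sites also fell from 6 hr to 24 hr, by 0.67 for TGM1 (SE 0.1, adjusted p = 6.91e-06, limma) and by 0.61 for DMKN (SE 0.17, adjusted p = 0.00442), where 5.18% of all probes were called and lower. SCEL (-0.57, adjusted p = 0.0211, limma) and CALML5 (-0.54, adjusted p = 0.00505) stayed under the fold limit (16.0% of all probes passed the p threshold and were lower), and with slide as a block their signs turned (0.06 and 0.57). With slide as a block neither TGM1 (-0.63, adjusted p = 0.111, limma) nor DMKN (-0.59, adjusted p = 0.467) was called. Without scaling the values were -0.13 for TGM1 and -0.06 for DMKN, neither called, with a median over all probes of 0.48. SCEL was -0.03 and CALML5 0.0 without scaling. DMKN also fell under the fold limit without dog 2800 (-0.52) or 2847 (-0.51), while TGM1 was called with each dog left out (-0.73 to -0.62). The nonsensitized 24 hr saline group is the control of the 24 hr allergen group of the same dogs. At the saline sites of the sensitized dogs no gene was called between 6 hr and 24 hr, with 0.927% of all probes called and lower. TGM1 (-0.44, adjusted p = 0.00388, limma), PPL (-0.38, adjusted p = 0.0235) and DMKN (-0.51, adjusted p = 0.0417) passed the p threshold under the fold limit, beside 4.02% of all probes in this direction. The PPL value equals that of the allergen sites of the same dogs over the same interval. TGM1, SCEL, PPL and DMKN were lower at 24 hr in 6 of 6 dogs, as were 11.8% of all probes. PPL was called there with slide as a block (-0.92). Without scaling TGM1 was -0.12, PPL -0.06 and DMKN -0.18, with a median over all probes of 0.32.

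At 6 hr no difference between allergen and saline was called for any of the 5 genes. The 6 hr interaction lay between -0.17 for DMKN (95% interval -0.65 to 0.3) and -0.04 for TGM1 (-0.33 to 0.25), no probe of the array was called by limma, and 525 probes had an unadjusted p below 0.05. In the sensitized dogs the allergen minus saline differences were -0.24 for TGM1, -0.32 for SCEL, -0.3 for PPL, -0.13 for CALML5 and -0.36 for DMKN, with adjusted p of 0.316 or more (limma) and 0.0152% of all probes called and lower. PPL and DMKN were lower in 6 of 6 of these dogs, as were 5.69% of all probes. In the nonsensitized dogs the differences were -0.2, -0.24, -0.19, -0.04 and -0.18 in the same gene order, where 0.0348% of all probes were called, all of them higher. TGM1 was lower in 6 of 6 dogs, against 3.77% of all probes, although dog 2845 had 11.85 at both sites, a difference of 0.0 at this precision. TGM1 was the gene of the 5 that passed the p threshold between 6 hr saline and untreated skin in sensitized dogs, with 0.35 (95% interval 0.14 to 0.56, adjusted p = 0.0211, limma), beside 3.25% of all probes in this direction. It was 0.13 with slide as a block (adjusted p = 0.956, limma) and also missed the threshold without scaling (adjusted p = 0.0647) and with all 60 arrays (adjusted p = 0.175), and without dog 2839, 2840, 2841, 2853 or 2855 (adjusted p up to 0.109). In the nonsensitized dogs TGM1 had 0.29 (95% interval 0.09 to 0.5, adjusted p = 0.0581, limma) and was higher in 6 of 6 dogs, as were 13.6% of all probes.

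The 5 genes varied together across arrays. Pearson r between the brightest probes of 2 genes ranged from 0.45 (PPL and CALML5) to 0.85 (SCEL and DMKN) over the 10 pairs and 59 arrays. After removal of the group means, r was 0.32 to 0.79 with the same pairs at the ends. Arrays of 1 dog share the animal, and arrays of 1 slide share the slide, so these values describe the arrays and carry no p.

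By the highest Pearson r over the 59 arrays among 1282 other named genes, DMKN was most like EPS8L1 (r 0.92), FLG2 (0.9), LY6G6C (0.88), TUFT1 (0.87) and NMT2 (0.87). SCEL was most like LY6G6C (0.9), FLG2 (0.89), NMT2 (0.89), SERPINB7 (0.88) and HIATL1 (0.86). TGM1 was most like TUFT1 (0.86), EPS8L1 (0.81), ZNF750 (0.8), GCOM1 (0.8) and SPSB3 (0.79). PPL was most like LMO7 (0.87), CGN (0.86), PITPNM3 (0.85), PTPN13 (0.85) and ABLIM1 (0.84). CALML5 was most like POF1B (0.79), KRTDAP (0.78), EPS8L1 (0.78), IDE (0.77) and AIF1L (0.76). FLG2 encodes a filaggrin-like protein of the granular layer, ZNF750 a transcription factor of keratinocyte differentiation and CGN the tight junction protein cingulin. All but KRTDAP stand in the study's 24 hr list, through which all but KRTDAP and CGN are named here and which favors genes that share the 24 hr difference.

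Other genes of the cornified envelope and of late differentiation were counted from a list of 42 genes, of which 15 could be named on the array and passed the filter. In the 24 hr interaction 6 of the 15 were called and lower and none higher, beside 0.337% and 0.598% of all probes, and the median of the 15 was -0.84 against 0.0 over all probes. Of the 15, 12 are named only through the study's own list of the same interaction, so the count is not independent of it. The 3 named through RefSeq were KRTDAP, SPINK5 and DSG1, with a median of -0.6 and no call. SPINK5 and DSG1 also stand in the study's list, so that of the 15 genes KRTDAP alone lies outside it. The called genes were FLG2 (-1.41, adjusted p = 0.0191, limma), ASPRV1, a protease that processes profilaggrin (-1.25), BLMH, a hydrolase that degrades filaggrin (-0.9), the nuclear receptor PPARA (-0.84), CAPNS2, a small calpain subunit (-0.84), and DSP, the desmosomal plakin desmoplakin (-0.62).

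The 3 genes of the list with the brightest probes among those not called were KRTDAP (-0.19), a secreted protein of differentiating keratinocytes, SPINK5 (-0.65), a protease inhibitor of the upper epidermis, and DSG1 (-0.6), a desmosomal cadherin. Outside that rule and chosen after their values were seen, LOR, which encodes the envelope protein loricrin (-1.41, adjusted p = 0.0648, limma), and KPRP (-1.42, adjusted p = 0.0506) had values of the size of FLG2 and were not called. At the 24 hr allergen site, 11 of the 15 genes were called and lower in sensitized than in nonsensitized dogs, where 3.58% of all probes were called and lower, with a median of -0.66 against 0.02 over all probes. The same 12 genes named only through the study's list are among these 15, and the allergen arrays enter the interaction on which that list was chosen.

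**Figure D4:**
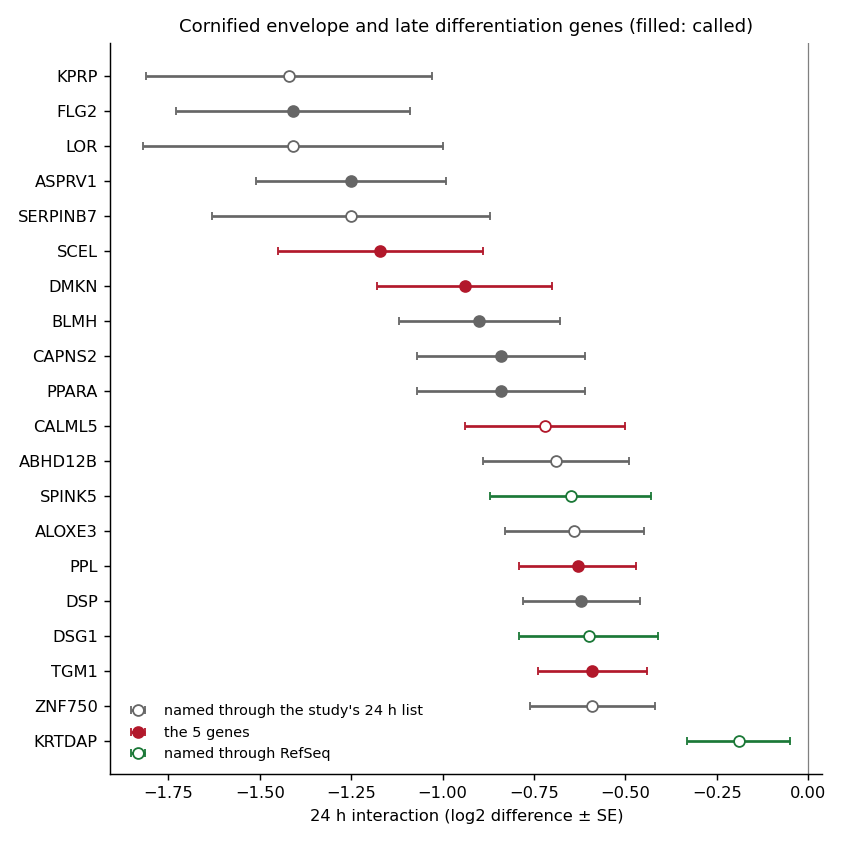
Interaction at 24 hr (horizontal axis, log2 difference ± SE) of the 5 genes and of the 15 other measured genes of the cornified envelope and late differentiation list, ordered by size, with filled points where called. All 20 points lie below 0, from KRTDAP at -0.19 to KPRP at -1.42, and the 12 grey genes were named through a list chosen on this interaction, in which SPINK5 and DSG1 stand as well.

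Markers of other cells in the biopsy were set beside these values. Suprabasal keratin genes were measured by KRT1 (-0.5), KRT2 (-0.54) and KRT77 (-1.45, named only through the study's 24 hr list) with DSG1, of which none was called in the 24 hr interaction, and the log2 of the summed level of the 4 genes ranged from 16.54 to 17.21 at the sensitized and from 17.14 to 17.82 at the nonsensitized 24 hr allergen sites. Of the leukocyte list 6 of 8 genes were measured, 5 of them named only through the study's list, and 1 (ITGB2, 1.37) was called in the interaction. The 6 values lay between 0.97 and 1.37. The summed level of the list was 12.13 to 13.12 (median 12.64) at the sensitized and 11.4 to 12.22 (median 11.88) at the nonsensitized 24 hr allergen sites, and 12.08 and 12.5 in the median at the saline sites. The summed levels were not tested. S100A8, a calcium-binding protein of activated keratinocytes and of neutrophils, had 2.83 (adjusted p = 0.118, limma).

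The fibroblast genes COL1A1, COL1A2 and DCN had a median interaction of 0.04 with none called, and the summed level overlapped between sensitized (18.12 to 18.54) and nonsensitized dogs (18.12 to 18.74) at the 24 hr allergen sites. The other lists were thinly measured. The interaction was -0.76 for the basal keratin KRT15, which is also named only through the study's list, 0.01 for BIRC5 of dividing cells, -0.11 for the hair follicle keratin KRT71 and 0.48 for DES of muscle, and the medians of 2 genes each were 0.25 for endothelium, -0.37 for adipose tissue and -0.44 for melanocytes. No gene of these lists was called in the interaction. The part of the cell make-up of the biopsies in the values of the 5 genes was not tested.

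The excluded array of sensitized dog 2839 gave lower values than the other 5 sensitized dogs at the 24 hr allergen site for TGM1 (9.29 against 10.79 to 11.17), SCEL (8.46 against 9.38 to 10.3), PPL (14.11 against 14.57 to 15.09) and DMKN (11.45 against 13.18 to 13.47) when all 60 arrays were scaled together. CALML5 lay within them (13.66). With that array included the interaction was called for the same number of genes, 4, at -1.43 for SCEL, -1.25 for DMKN, -0.88 for TGM1 and -0.75 for PPL.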

How the data were processed

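Total RNA of the biopsies was labeled with Cy3 and hybridized to 1-color canine arrays, read with Agilent Feature Extraction 10.7.3.1 per the labels. The deposited scanner files hold the processed signal intensity of each spot, which the authors' software had corrected for background, with flags for outliers, saturation and signal well above background. The deposited series table holds the same intensity values. Outlier spots were set to missing (4588 values), and a spot was kept if 5 or more arrays of any 1 group flagged it well above background (47229 of 61657). The study's method, vsn, was not installed. Its model, an asinh transformation with an offset and a scale for each array, was therefore refitted in Python 3.11.15 with the smallest 90% of the residual variances kept, and the values were put on a log2 scale. Spots of a probe were averaged, which left 45972 probes. Groups were compared without pairing, as in the study, but in 1 fit of the 10 groups, where the study describes an analysis for each time, with limma 3.58.1 (49 residual degrees of freedom). Both fitting steps were run on simulated data. For limma these held independent arrays with no correlation within a dog or a slide, so they do not show how the unpaired fit treats it. The 2 arrays whose files lack the scanner settings block were read in the same way.

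For a gene with several probes the brightest was named. Differences of the other PPL and DMKN probes were given for the 24 hr interaction. Genes of the lists were read by their brightest probe alone, also where they had more, such as SPINK5 (4 probes) and DSG1 (2 probes). From the gene list, genes called in the 24 hr interaction and the 3 uncalled genes with the highest signal were named. The genes, lists and comparisons were chosen with earlier results of these data known. Of 54600 identifiers, 1059 were named through RefSeq and 508 through the study's annotation of its 24 hr list alone.

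The dog number pairs the biopsies because they came from the same animal: the deviations from the group means had a median correlation of 0.386 over 116 pairs of arrays of the same dog and of -0.034 over 1450 pairs of different dogs. The replicate samples are different dogs. No sequences or genome positions are given, because no file used here pairs the probes with them.

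Alternatives were other scalings, filters and thresholds, all 60 arrays, each time fitted alone, the dog, the slide or the scan day as a block, and each dog left out. The precision is limited by the 6 dogs of a group. Columns of the authors' own comparisons, which hold fold changes and p-values, were not used.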

Additional observations from a re-analysis of the deposited data

Results flagged for a closer look

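The response to the allergen at 24 hr differed between sensitized and nonsensitized dogs for 4 of the 5 genes by the interaction term of the limma fit, at -0.59 for TGM1 (adjusted p = 0.033), -1.17 for SCEL (adjusted p = 0.0266), -0.63 for PPL (adjusted p = 0.041) and -0.94 for DMKN (adjusted p = 0.0366). Of all probes 0.337% were called and lower in this interaction, on which the study had chosen these genes, so nothing is read from the count. In each case the allergen minus saline difference was lower in the sensitized dogs. Among 50 gene and group combinations of 5 or 6 arrays, 0 had an array far from the others by Dixon's test at the 95% level, where chance flags about 1 in 20.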

How the results depend on the processing

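The number of the 5 genes called in the 24 hr interaction, 4, was 1 with no filter on dim spots, 0 without scaling, 2 with slide as a random block, 1 with each time fitted separately and 0 to 4 with each dog left out. Without scaling, 81 of all probes were called higher and 4 lower in this interaction, against 275 and 155. The number called at the sensitized 24 hr allergen sites against saline, 1, was 3 with all 60 arrays, 0 with no filter, 0 with 75th percentile scaling, 0 without scaling, 2 with the dog as a replicate block, 2 with slide as a random block, 3 with slide as a block, 2 with scan day as a block, 0 with each time fitted separately, 2 at an unadjusted p limit of 0.002, and 0 to 1 with each dog left out. Against untreated skin, 2 in the sensitized allergen sites became 4 with all 60 arrays, 4 with scan day as a block and 4 with no fold limit (2 to 2 with each dog left out). The 0 of the nonsensitized allergen sites became 1 without scaling, the 0 of the sensitized saline sites 1 without scaling and 2 with slide as a block, and the 0 of the nonsensitized saline sites 1 with scan day as a block and 3 with no fold limit. Without scaling 18234 of the 45972 probes were called higher at the nonsensitized allergen sites (median over all probes 0.49). At the sensitized saline sites 8447 were called higher (median 0.28). From 6 hr to 24 hr, the 2 of the sensitized allergen sites became 1 with no filter, 75th percentile scaling, normexp, slide as a random block, slide as a block, scan day as a block or the unadjusted p limit, 0 without scaling, 4 with no fold limit and 1 to 2 with each dog left out, and the 0 of the nonsensitized allergen sites became 2 without scaling. In that last comparison without scaling, 16199 of the 45972 probes were called higher, with a median of 0.48. The 3 called between both kinds of dogs at the 24 hr allergen sites became 5 with no fold limit and 3 to 4 with each dog left out. In the other 10 comparisons whose genes were counted with each dog left out, the count stayed at 0 to 0. The changes from 6 hr to 24 hr at the saline sites were not counted in this way. Scan day as a block was chosen after seeing the data. Signs turned for CALML5 at the sensitized allergen sites, against untreated skin without scaling (0.12) and with slide as a block (0.49) and against 6 hr with slide as a block (0.38). At the nonsensitized saline sites they turned against untreated skin for TGM1 (0.22), SCEL (0.11) and DMKN (0.11) without scaling and SCEL with slide as a block (0.15), and from 6 hr with slide as a block for CALML5 (0.57) and SCEL (0.06). Without scaling that CALML5 value was 0.0, which has no sign at this precision. The cause was not tested. The dog as a replicate block moved no other count of called genes by over 1.5 times, although it added CALML5 to the interaction at 24 hr (-0.69, adjusted p = 0.0162, limma). All 8 probes were well above background on the 59 arrays, so that no value of the 5 genes rests on a signal near background.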
